A study of Mus musculus with 474 samples.

Results

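The 8 genes described here encode surface and marker proteins by which mouse haematopoietic stem cells (HSCs) are recognised or sorted. They are Procr, Cd34, Slamf1, Cd48, Fgd5, Flt3, Cd27 and Ctnnal1, taken by name from the 55450 genes of the count tables. The list held 9 names, because Slamf2 is another name for Cd48. Of the 8 genes, 7 had a count in at least 1 cell and 6 had one in at least 20% of cells.

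Every cell was a daughter of a wild-type HSC from bone marrow of C57BL/6JRj male mice, which were between 12 and 19 weeks of age. The HSCs divided once in culture under a microscope, and each daughter was picked with a micromanipulator and sequenced by Smart-seq2, which reads full-length transcripts of a single cell. A daughter is called high where it received more lysosomes than its sister and low where it received fewer; how this label was set is not given in the sources used here. Both labels come from the same cultures and genotype, no undivided HSC was analysed here, and neither a treatment nor a sort by marker is named in the labels. The cells came from 9 culture experiments, 4 in sequencing run 5 and 5 in sequencing run 4, with 28 to 77 cells each. Both sisters were present for 11 to 38 divisions of each experiment, and 68 cells had no sequenced sister. Nothing says which animals the experiments came from, so p-values measure the spread between these cultures, or between divisions where that is stated.

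HSCs are sorted by combinations of surface proteins, and the genes here mark different steps of that scheme. EPCR (Procr) and CD150 (Slamf1) are high on long-term HSCs, while CD34, CD48, FLT3 and CD27 appear or increase as stem cells turn into multipotent progenitors. Fgd5 and Ctnnal1 (also called alpha-catulin) encode proteins inside the cell whose reporter mice mark HSCs. Transcript and surface protein need not follow each other, and only transcripts were measured here.

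The promoters of 4 members are shown because these genes make up the pairs that went together (Procr and Fgd5) or apart (Slamf1 and Flt3) across divisions, as described further on. Each runs from 250 bases before to 50 bases after the transcript start in RefSeq on GRCm38.p6, read 5′ to 3′ on the strand of the gene. Capitals mark matches, on either strand, to the letters GATAA (GATA factors), TGTGGT (RUNX factors), CCGGAA (ETS factors) or CANNTG (E-box). Procr lies at chr2:155750967-155751266 on the plus strand, Fgd5 at chr6:91978715-91979014 on the plus strand, Slamf1 at chr1:171766882-171767181 on the plus strand and Flt3 at chr5:147400440-147400739 on the minus strand.
Procr: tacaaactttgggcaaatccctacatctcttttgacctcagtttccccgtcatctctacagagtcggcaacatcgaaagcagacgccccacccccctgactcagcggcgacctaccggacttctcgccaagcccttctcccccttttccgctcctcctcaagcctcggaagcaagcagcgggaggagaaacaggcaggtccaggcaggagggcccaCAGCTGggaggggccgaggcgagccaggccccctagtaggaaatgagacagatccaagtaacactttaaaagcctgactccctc
Fgd5: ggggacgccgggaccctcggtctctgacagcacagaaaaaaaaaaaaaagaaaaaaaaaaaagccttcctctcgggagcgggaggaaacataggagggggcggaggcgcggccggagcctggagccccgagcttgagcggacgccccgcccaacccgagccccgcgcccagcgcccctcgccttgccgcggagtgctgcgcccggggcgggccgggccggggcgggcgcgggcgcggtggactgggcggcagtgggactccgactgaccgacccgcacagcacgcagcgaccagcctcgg
Slamf1: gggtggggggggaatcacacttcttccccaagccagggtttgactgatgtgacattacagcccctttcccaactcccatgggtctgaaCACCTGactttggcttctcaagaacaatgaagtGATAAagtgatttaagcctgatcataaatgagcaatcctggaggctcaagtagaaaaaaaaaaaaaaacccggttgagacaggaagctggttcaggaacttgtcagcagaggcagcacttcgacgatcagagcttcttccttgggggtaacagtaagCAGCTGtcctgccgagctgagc
Flt3: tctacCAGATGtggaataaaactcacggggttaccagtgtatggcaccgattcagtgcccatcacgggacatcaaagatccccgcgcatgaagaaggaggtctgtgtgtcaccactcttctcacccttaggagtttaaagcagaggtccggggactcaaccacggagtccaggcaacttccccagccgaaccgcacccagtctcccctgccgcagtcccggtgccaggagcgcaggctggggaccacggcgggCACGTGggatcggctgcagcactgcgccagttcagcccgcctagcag
Procr and Fgd5 shared none of the 4 motifs in these windows. Procr held 1 E-box and Fgd5 held no match. Slamf1 held 1 GATA match and 2 E-boxes, and Flt3 held 2 E-boxes. The E-box letters stood in 72.3% of all 32851 promoters of this length, GATAA in 25.4%, TGTGGT in 16.8% and CCGGAA in 14.9%. The base composition also differed, with 58.3% G and C in the Procr window, 71.3% in Fgd5, 49% in Slamf1 and 61% in Flt3.

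Total counts on genes ran from 76735 to 2444858 per cell with a median near 846198. Levels are given in CPM (counts of a gene relative to all counts on genes in the cell, on the usual scale). A gene at a few CPM rests on a handful of reads at the median depth and can have no read in the shallowest cells. The cells carried transcripts of HSCs, with counts of the stem cell transcription factor gene Mecom in 100% of cells, of the stem cell factor receptor gene Kit in 99.8% and of Ly6a (Sca-1) in 97.9%. Endothelium also carries EPCR and CD34, and its marker genes ranged widely, with Cdh5 in 2.32% of cells, Cldn5 and Sox17 in 0.211% each, Pecam1 in 93.7% and Tie1 in 99.8%. Several genes were at 0 in all cells, among them the HSC reporter gene Hoxb5, the SLAM gene Ly9 and the progenitor gene Mpo.

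Cd34 and Procr were the most abundant members. Cd34 (ENSMUSG00000016494.9, GRCm38 chr1:194938819-194961279, plus strand), a sialomucin of the cell surface, had a count in 98.5% of cells (exact 95% interval 96.98 to 99.4) with a median of 149.9 CPM. Procr (ENSMUSG00000027611.12, chr2:155751117-155755471, plus strand), the receptor of protein C, had a count in 85.4% of cells (81.9 to 88.5) with a median of 50.2 CPM and a highest value of 697.5 CPM. The exons of Cd34 span 7290 bases and those of Procr 2031 bases, so per kilobase of exon the order was turned, with mean levels of 41.5 CPM per kb for Procr and 22.1 for Cd34. A short stretch of the Cd34 exons overlaps the antisense gene Gm16897, which had a count in 43.7% of cells, and how reads there were assigned is not given in the sources used here. Intervals of shares cover counting error only.

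Fgd5 and Ctnnal1 were also found in most cells. Fgd5 (ENSMUSG00000034037.14, chr6:91978878-92076004, plus strand) encodes an exchange factor for the GTPase CDC42, and its transcripts were counted in 86.7% of cells with a median of 47.9 CPM. Ctnnal1 (ENSMUSG00000038816.14, chr4:56810935-56865188, minus strand), a relative of alpha-catenin, likewise had a count in 86.7% of cells and a median of 33.3 CPM. Mean levels per kilobase were 11.2 CPM for Fgd5 and 5.77 CPM for Ctnnal1, below Procr and Cd34. With every cell thinned to 76735 counts the shares became 97.8% for Cd34, 76.9% for Procr, 75.9% for Fgd5 and 72.9% for Ctnnal1.

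Slamf1 and Flt3 were found in a minority of cells, although they mark opposite ends of the sorting scheme. Slamf1 (ENSMUSG00000015316.11, chr1:171767127-171801184, plus strand), the gene of CD150, had a count in 28.7% of cells (24.7 to 32.99), with a median of 18.1 CPM in those cells. Flt3 (ENSMUSG00000042817.15, chr5:147330741-147400489, minus strand), the receptor tyrosine kinase of FLT3 ligand, had a count in 30.6% of cells (26.5 to 34.96), with a median of 20.2 CPM in those cells. Per kilobase their mean levels were close, at 1.36 CPM for Slamf1 and 1.63 CPM for Flt3. Thinned to equal totals, 19.1% of cells would have a count of Slamf1 and 21.3% one of Flt3.

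Cd48 and Cd27 were the rarest. Cd48 (ENSMUSG00000015355.13, chr1:171682009-171705258, plus strand), a SLAM family protein used to set progenitors apart from HSCs, had a count in 20 cells (4.22%, 2.60 to 6.44) and a mean of 0.649 CPM per kb. Its highest cell nevertheless held 100 reads, or 74.9 CPM. Cd27 (ENSMUSG00000030336.14, chr6:125232622-125237010, minus strand), a receptor of the TNF family, was at 0 in all cells, which allows a share of cells with a count of up to 0.633% by the rule of 3 counts in all cells (exact 95% limit 0.775%). The microRNA gene Mir8113 overlaps the Cd27 exons in part and was also at 0. Since genes such as Mpo and Hoxb5 were at 0 too, the value of Cd27 is given as listed and not read as absence of the transcript.

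**Figure D1:**
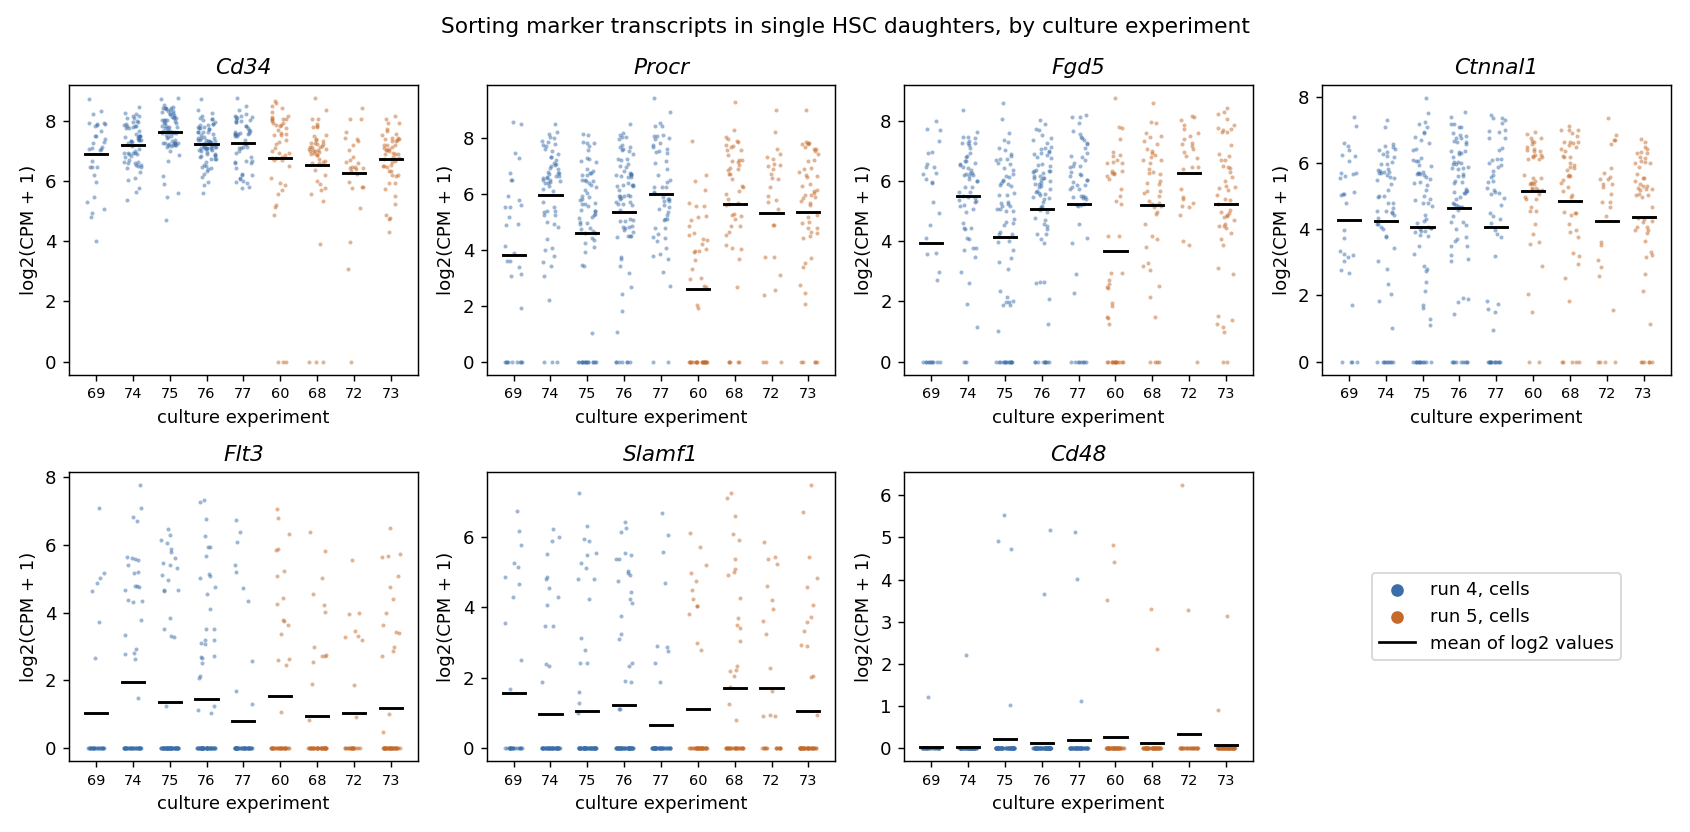
Levels of 7 members in single cells (log2(CPM + 1), vertical axis) by culture experiment (horizontal axis; run 4 in blue, run 5 in orange), with the mean of the log2 values as a bar. Cd34 stood well above 0 in nearly all cells of every experiment, Procr was lowest in experiment 60, and Flt3, Slamf1 and Cd48 were at 0 in most cells.

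Procr had the largest share of its log2 variance between culture experiments among the 7 members with a count. Mean Procr over the cells of an experiment was lowest at 20.7 CPM in experiment 60, had a median of 88.99 CPM over the 9 experiments and was highest at 124.2 CPM in experiment 77. The share of cells with Procr was 58.3% in experiment 60 and between 71.9% and 96.4% in the others. Of the variance of log2(CPM + 1) over the cells of complete divisions, 18.0% lay between experiments for Procr, 9.75% for Cd34 and 9.08% for Fgd5, against a median of 3.82% over all 11745 genes with a count in at least 20% of cells.

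Set against their means, experiment means varied most for Cd48 and Flt3. The SD over 9 experiments divided by the mean was 1.11 for Cd48, 0.447 for Flt3, 0.380 for Procr, 0.351 for Slamf1, 0.280 for Fgd5, 0.203 for Cd34 and 0.14 for Ctnnal1. Cd48 had a count in only 20 cells and Flt3 in 30.6% of cells. The part of such sparse counts in this ratio was not tested. Cd34 ran from 110.8 to 217.03 CPM, Fgd5 from 49.9 to 117.2 CPM and Ctnnal1 from 36.1 to 52.3 CPM. Slamf1 ran from 4.76 to 14.6 CPM and Flt3 from 4.10 to 17.7 CPM. Per kilobase of exon, the mean over 9 experiments was 41.1 ± 15.6 CPM per kb for Procr (SD), 21.4 ± 4.34 for Cd34, 11.6 ± 3.24 for Fgd5, 5.73 ± 0.800 for Ctnnal1, 1.53 ± 0.684 for Flt3, 1.41 ± 0.495 for Slamf1 and 0.714 ± 0.794 for Cd48. In that order Procr was above Cd34 and Cd34 above Fgd5 in 8 of 9 experiments each, Fgd5 above Ctnnal1 and Ctnnal1 above Flt3 in 9 of 9. Flt3 was above Slamf1 in 5 of 9 experiments, so these neighbours did not differ beyond their spread, and Slamf1 was above Cd48 in 8 of 9.

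Between sequencing runs no member passed. Of 15269 genes tested on sums per experiment (edgeR quasi-likelihood test, Benjamini-Hochberg), 0 passed and 10.6% had an unadjusted p under 0.05 (1621 genes), while DESeq2 called 46 genes (0.301%), none of them a member. Cd34 averaged 133.5 ± 24.6 CPM in run 5 and 173.5 ± 25.8 CPM in run 4 (SD, n = 4 and 5 experiments), a log2 difference of -0.38 ± 0.14 (SE; edgeR, adjusted p = 0.447), and the runs overlapped. Flt3 averaged 7.35 ± 3.78 CPM in run 5 and 11.1 ± 4.13 CPM in run 4, a log2 difference of -0.70 ± 0.33 (edgeR, adjusted p = 0.474). Fgd5 and Slamf1 differed by 0.31 each on the log2 scale, which became 0.09 for Fgd5 without experiment 72 and 0.08 for Slamf1 without experiment 68. Ctnnal1 differed by 0.14 and Procr by -0.13, none past the threshold of 0.05.

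Sisters shared the level of 5 of the 6 members that could be tested. Sharing was measured by the intraclass correlation of log2(CPM + 1), centred on experiment and plate, which is near 1 where sisters differ little compared with divisions and near 0 where sisters are as unlike as other cells. Of 11745 genes, 3095 (26.4%) passed the F test over divisions with Benjamini-Hochberg adjustment, and the median intraclass correlation was 0.086. The 5 members past the threshold lay between the 90.2 and 99.1 percentiles of all genes, and Ctnnal1 was at the 62.8 percentile. These p-values rest on divisions within 9 cultures.

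Cd34 was shared most. Its intraclass correlation was 0.638 (95% interval 0.548 to 0.714), positive in 9 of 9 experiments, from 0.395 to 0.832. In the division whose mean Cd34 was the median of all, the high daughter had 155.1 CPM and the low daughter 164.8 CPM; in the division with the highest mean these values were 417.2 and 319.3 CPM. The median difference between sisters was 0.468 on the log2 scale, against 0.684 between unrelated cells of one plate. Of the sum of squares of Cd34, 73.3% lay between divisions of an experiment and 16.99% between sisters, against medians of 50.8% and 44.8% over all genes. A division mean rests on both sisters, so a large part falls between divisions even where sisters are as unlike as other cells.

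Procr came next, with an intraclass correlation of 0.546 (0.440 to 0.637), positive in 9 of 9 experiments from 0.411 to 0.846. In the median division the high daughter had 54.6 CPM and the low daughter 51.5 CPM, and in the highest division 237.8 and 628.3 CPM. Both sisters had Procr in 76.8% of divisions, 1 sister alone in 30 divisions and neither in 17. Unrelated pairs had Procr in both cells at similar shares, 75.4% from one plate and 71.4% in adjacent wells. The 17 divisions without Procr made up 8.37% of divisions, and 7 of the 17 came from experiment 60. Among unrelated pairs, 2.87% from one plate and 3.90% in adjacent wells lacked it in both cells. The pairs of one plate weigh experiments by their number of pairs, unlike the share of divisions. The median difference between sisters in log2 Procr was 1.04, against 1.91 between unrelated cells of a plate.

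Fgd5, Slamf1 and Flt3 were shared less than Cd34, with intervals below that of Cd34. The intraclass correlation was 0.356 (0.228 to 0.472) for Fgd5, 0.343 (0.214 to 0.460) for Slamf1 and 0.269 (0.135 to 0.393) for Flt3, and these 3 intervals overlapped. Fgd5 was positive in 9 of 9 experiments, Slamf1 in 8 and Flt3 in 6. Both sisters had Slamf1 in 25 divisions (12.3%) and Flt3 in 34 (16.7%), against 6.94% and 10.3% of unrelated pairs of one plate. In unrelated pairs of adjacent wells these shares were 9.74% for Slamf1 and 10.4% for Flt3. Flt3 had 0.131 in run 5, where it did not pass (F test over divisions, adjusted p = 0.374, with 10.2% of genes passing), and 0.325 in run 4, where it did (adjusted p = 0.000726, with 21.2% passing); the difference between runs was not tested.

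Ctnnal1 and Cd48 did not pass. Ctnnal1 had an intraclass correlation of 0.120 (-0.019 to 0.255; adjusted p = 0.122), positive in 6 of 9 experiments, although it was found in as many cells as Fgd5. Without experiment 76 it had 0.209 and passed (adjusted p = 0.0218). For Cd48, left out by the filter on detection, the value without that filter was -0.01 (-0.14 to 0.13), with both sisters positive in 1 division and 1 sister alone in 16.

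**Figure D2:**
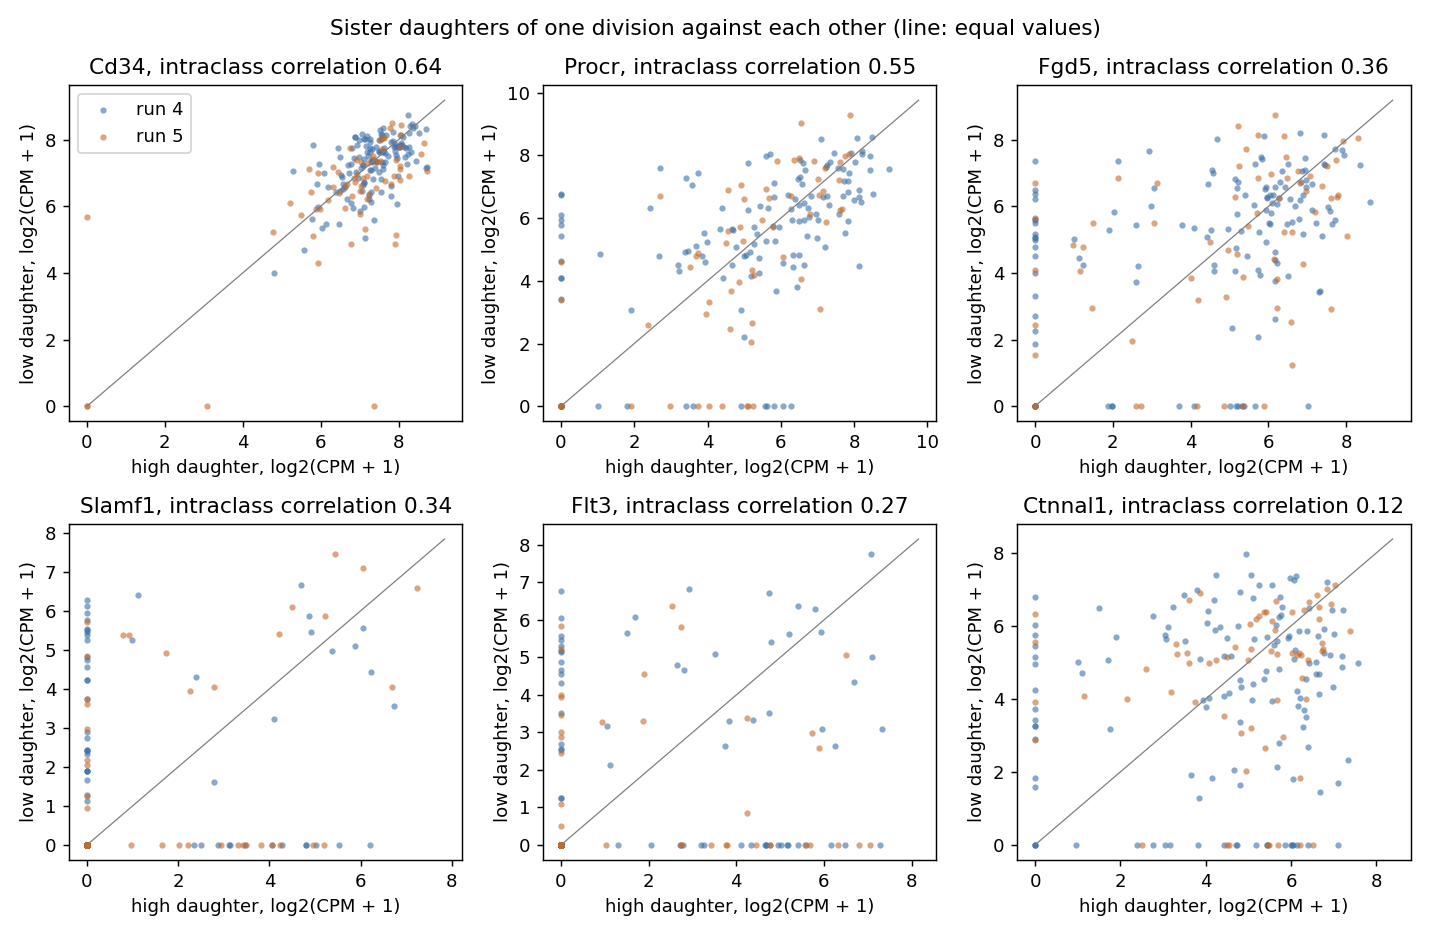
High daughter (horizontal axis) against low daughter (vertical axis) of each division, in log2(CPM + 1), for 6 members, with run 4 in blue, run 5 in orange and a line of equal values. Cd34 and Procr lie along the line (intraclass correlations 0.64 and 0.55), while Ctnnal1 spreads widely (0.12) and Slamf1 and Flt3 have many divisions at 0 in 1 sister.

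Cell cycle scores and well position were set beside this sharing. With scores of G1/S genes (DNA replication) and G2/M genes (mitosis) regressed out, 11.9% of all genes passed, and the same 5 members did so, with Cd34 at 0.638, Procr at 0.473, Slamf1 at 0.327, Fgd5 at 0.261 and Flt3 at 0.256. Depth and detected genes regressed out left Cd34 at 0.644, Procr at 0.543 and Fgd5 at 0.379. Sisters mostly lay in adjacent wells, and pairs of unrelated cells in adjacent wells gave correlations of -0.13 for Cd34, 0.00 for Procr, 0.03 for Fgd5, 0.07 for Slamf1 and -0.11 for Flt3.

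**Figure D3:**
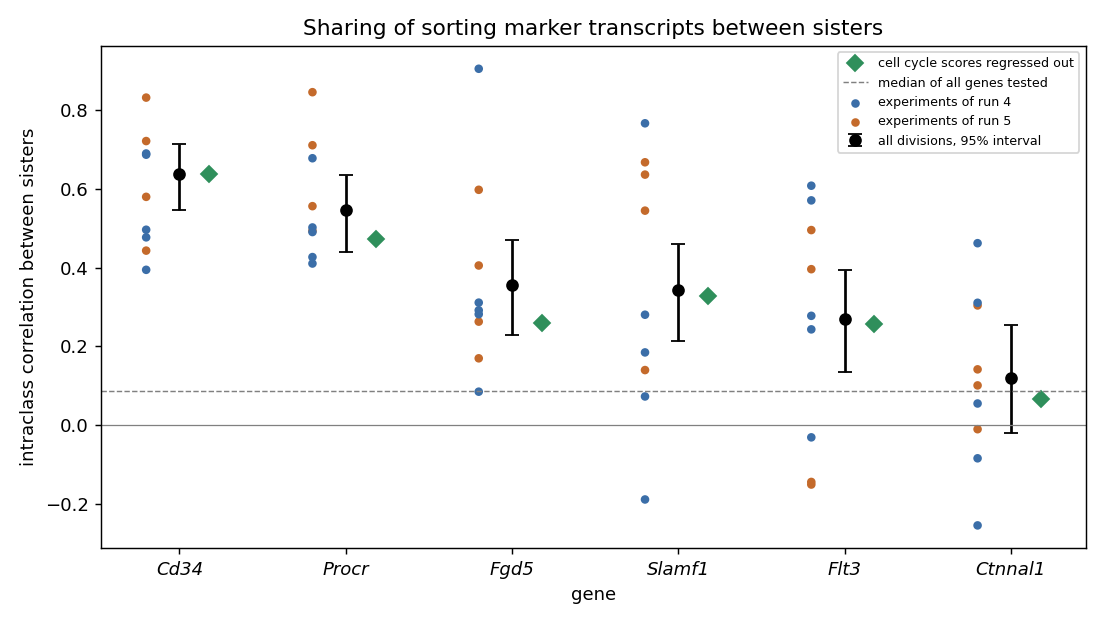
Intraclass correlation between sisters (vertical axis) for 6 members, with its 95% interval (black), the value after regressing out cell cycle scores (green) and the value in each experiment (blue, run 4; orange, run 5). The dashed line is the median of all genes, 0.086, and Cd34, Procr and Fgd5 are above 0 in all 9 experiments.

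Procr and Fgd5 went together. Over all cells their Pearson r was 0.46 (Spearman correlation 0.48), and over the means of divisions r was 0.59, on values centred on experiment and plate. Among 11745 genes Procr had the highest r with Fgd5. Cells and divisions share library, depth and culture, so these are descriptions. Within experiments r over division means was positive in 9 of 9, between 0.00 and 0.86, and leaving out any experiment kept it between 0.557 and 0.620. Over differences between sisters, where whatever sisters share drops out, r was 0.22.

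Both genes were lower where cell cycle genes were higher. Over cells, r with the G2/M score was -0.34 for Procr and -0.33 for Fgd5. With the G1/S score it was -0.29 for Procr and -0.21 for Fgd5. With both cell cycle scores regressed out, the r between Procr and Fgd5 was 0.39. The score of endothelial markers had r = 0.23 with Procr and 0.21 with Fgd5; the part of these markers in the relation was not tested. All 10 markers of that list were counted in some cell, each in 0.211% to 99.8% of cells, with a median sum of 253.6 CPM in high daughters (quartiles 182.2 and 361.1) and 244.03 CPM in low daughters (180.8 and 337.3). Fgd5 was found in both sisters in 75.4% of all divisions, in 83.3% of those with Procr in both, and in 4 of the 17 without Procr. These counts were pooled over experiments, and 7 of the 17 came from experiment 60.

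Cd34 had a weaker relation with Procr and little with Fgd5. Over division means r was 0.24 between Procr and Cd34 and 0.07 between Fgd5 and Cd34. Within experiments the r of Procr and Cd34 was positive in 8 of 9, from -0.39 to 0.83, and over differences between sisters it was 0.21, near the 0.22 of Procr and Fgd5. Of the 17 divisions without Procr, 16 had Cd34 in both sisters. The division mean of Cd34 had a median of 79.5 CPM in the divisions without Procr (21.04 to 321.2) and 162.8 CPM in the other divisions (0 to 368.3), with overlap, and that of Fgd5 2.22 and 57.9 CPM. These values were pooled over experiments and not centred. Experiments 60 and 69, with 7 and 3 of the 17 divisions, had the lowest median Fgd5 over cells, 11.8 and 25.8 CPM. The median of mean total counts was 736208 in the divisions without Procr and 866130 in the others. The part of experiment and of depth in these differences was not tested. Of the cells with Procr 99.3% had Cd34, and 65 cells had Cd34 without Procr.

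Slamf1 and Flt3 tended apart. Over cells r was -0.20 (Spearman correlation -0.09) and over division means -0.23, and it was negative in 8 of 9 experiments. Flt3 had a count in 27 cells with Slamf1, 19.9% of them, against 30.6% of all cells. Of 25 divisions with Slamf1 in both sisters, 1 had Flt3 in both and 17 had it in neither. Over all divisions Flt3 was found in both sisters in 16.7% and in neither in 53.2%. In these sparse counts a correlation of this size describes the libraries only. The other pairs of members lay between -0.12 and 0.13 over division means, and Ctnnal1 followed none of the members closely.

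**Figure D4:**
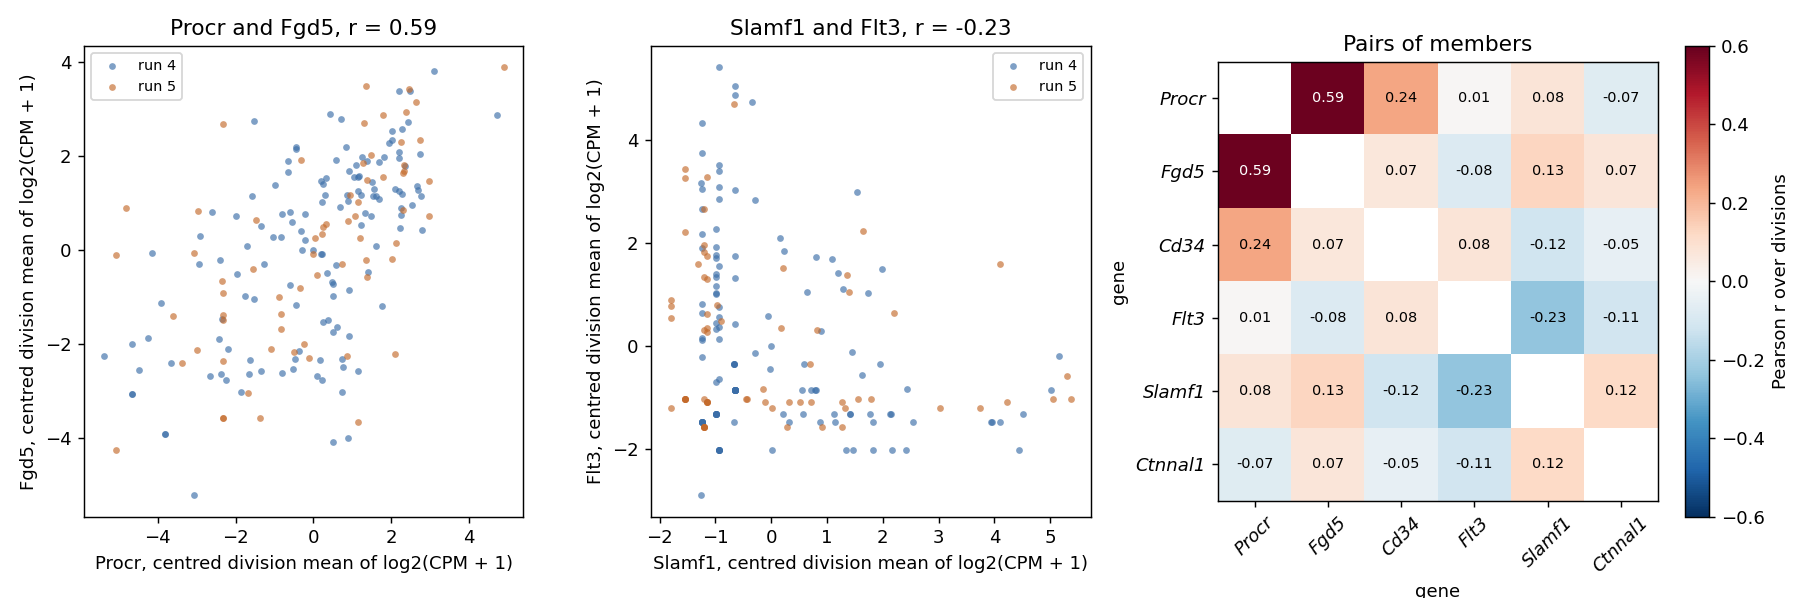
Centred division means of log2(CPM + 1) for Fgd5 against Procr (left) and Flt3 against Slamf1 (middle), 1 point for each division (run 4 in blue, run 5 in orange), and Pearson r for all pairs of 6 members (right). Procr and Fgd5 go together (r = 0.59), and Slamf1 and Flt3 tend apart (r = -0.23). Flt3 was found in neither sister in 53.2% of all divisions.

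Genes most like each member were named by r over the same division means among 11745 genes. Procr was nearest to the mitotic kinase gene Nek6 (r = 0.60), the tetraspanin gene Cd53 (0.60) and the glutathione transferase gene Gstm1 (0.60), and farthest from Itga2b (-0.55), the integrin gene of CD41. Within run 5 and run 4 Itga2b had -0.62 and -0.52. Cd34 was nearest to Gusb (0.43), a lysosomal glucuronidase gene, Ramp1 (0.41) and Tmem173 (0.41), the gene of STING, and farthest from Efcab5 (-0.28). Gusb had 0.50 in run 5 and 0.24 in run 4.

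Fgd5 was nearest to Procr, then to the membrane repair gene Myof (0.50) and the haem oxygenase gene Hmox1 (0.49), and farthest from Hmgb2 (-0.48), a chromatin protein gene of cycling cells. Slamf1 was nearest to Exoc3l2 (0.39), Clu (0.38), which encodes clusterin, and the stress gene Nupr1 (0.38), and farthest from Frat2 (-0.27). Clu stood at the other end for Flt3 (-0.42), whose nearest genes were Kcnk12 (0.41), Ncf4 (0.41), a subunit of the phagocyte oxidase, and 2610307P16Rik (0.38). Ctnnal1 was nearest to Mipol1 (0.38), the chromatin assembly gene Chaf1b (0.37) and Ints7 (0.37), and farthest from Gm8960 (-0.31). Ctnnal1 was also the member with the highest r with the G1/S score, 0.22 over cells.

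Other genes of the same pathways were shared by sisters to different degrees, beside the 26.4% of all genes that passed and the 11.9% that did so with cell cycle scores regressed out. Of the protein C pathway, which EPCR serves, 4 of 6 tested genes passed, namely Tfpi (0.481), an inhibitor of tissue factor, the thrombin receptor gene F2r (0.448), the protease inhibitor gene Serpine2 (0.380) and Pros1 (0.251), the cofactor protein S. Proc, which encodes protein C, was found in 1.27% of cells. Of 8 sialomucins and related genes 4 passed, led by Cd24a (0.338) and Emcn (0.300). In the SLAM family Cd244a passed (0.486) and Cd84 did not (-0.03), out of 2 tested; Cd84 had a count in 93.2% of cells and Slamf7 in 3.38%.

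Among 10 partners of FLT3 and CD27 signalling 2 passed, Siva1 (0.383), which binds CD27, and the adaptor gene Grb2 (0.235), and Siva1 had 0.02 with cell cycle scores regressed out. By contrast 16 of 24 other HSC surface markers passed, led by Ly6a (0.590), Cd9 (0.442), Cd82 (0.397) and Itga2b (0.391). So did 7 of 8 HSC reporter genes, led by Vwf (0.584) and the transcription factor gene Hlf (0.544), and 6 of 7 multipotent progenitor genes, led by Cd53 (0.620) and Cdk6 (0.574). With cell cycle scores regressed out, 12 of the 24 surface markers, 2 of the 8 reporter genes and 4 of the 7 progenitor genes passed, as did 4 of 6 genes of the protein C pathway, 3 of 8 sialomucins and 1 of 10 signalling partners. The median intraclass correlation without that correction was 0.209 over the other surface markers, 0.211 over the reporter genes and 0.300 over the progenitor genes, beside 0.086 over all genes.

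Between high and low daughters no member passed. With edgeR on counts summed per experiment and label (experiment as block, Benjamini-Hochberg), 0 of 12899 genes passed, 543 (4.21%) had an unadjusted p under 0.05, and DESeq2 called 4 genes (0.031%), none of them a member. The adjusted p of each of the 6 members tested was 0.9996 (edgeR). In each list of pathway genes named above, 0 genes passed.

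Cd34 was nearest to a difference towards the high daughters. Over experiments it ran from 116.9 CPM through a median of 169.5 to 211.2 CPM in high daughters, and from 110.02 CPM through a median of 149.7 to 209.6 CPM in low daughters, so the groups overlapped. Its log2 difference was 0.16 ± 0.06 (SE; 95% interval 0.02 to 0.29; unadjusted p = 0.0274 in edgeR), and summed counts were higher in high daughters in 8 of 9 experiments, mean log2 values in 7 and mean CPM over cells in 6. The same difference was 0.27 ± 0.11 in run 5 and 0.07 ± 0.07 in run 4. Averaged over divisions it was 0.16 ± 0.07 (limma, adjusted p = 0.863; 5.69% of genes had an unadjusted p under 0.05).

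Slamf1 stood on the other side. It ran from 4.09 CPM through a median of 6.46 to 13.4 CPM in high daughters, and from 5.71 CPM through a median of 9.91 to 16.3 CPM in low daughters. The log2 difference was -0.56 ± 0.23 (95% interval -1.06 to -0.05; unadjusted p = 0.0323 in edgeR), and the summed high daughters were above the low ones in experiment 74 alone, while by the mean over cells this held in 2 of 9 experiments. Over divisions the difference was -0.30 ± 0.16 (-0.62 to 0.02; limma, adjusted p = 0.863). In sums it was -0.54 in run 5 and -0.58 in run 4. Slamf1 was found in the high sister alone in 26 divisions and in the low sister alone in 36, which did not pass (exact two-sided sign test, adjusted p = 1; 3.4% of 14195 genes had an unadjusted p under 0.05).

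Procr averaged 75.6 ± 33.01 CPM in high daughters and 81.4 ± 29.1 CPM in low daughters (SD, n = 9 experiments). The fitted log2 difference was -0.15 ± 0.10. It was -0.39 ± 0.14 in run 5 and 0.05 ± 0.11 in run 4. The test of this difference between runs did not pass (edgeR interaction, -0.44 ± 0.17, unadjusted p = 0.0258, adjusted p = 0.977), in a comparison with 0 of 12899 genes called and 4.65% at an unadjusted p under 0.05. Over divisions the Procr difference was 0.02 ± 0.16, and Procr was found in the high sister alone in 18 divisions and in the low sister alone in 12.

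The remaining members did not pass either. Fgd5 stood at -0.00 ± 0.12 and Ctnnal1 at 0.10 ± 0.11 on the log2 scale in sums, and at -0.22 ± 0.19 and 0.34 ± 0.20 over divisions (limma, adjusted p = 0.921 and 0.875). Flt3 averaged 10.7 ± 6.44 CPM among high daughters and 8.89 ± 6.42 CPM among low ones. Its fitted log2 difference was 0.29 ± 0.49, whose 95% interval ran from -0.75 to 1.34 and which lay between 0.05 without experiment 60 and 0.60 without experiment 68. Flt3 was found in the high sister alone in 34 divisions and in the low sister alone in 27. Cd48, tested without the filter on low counts, had -1.29 ± 1.09 (-3.55 to 0.96). For Flt3, Cd48 and Slamf1 a 2-fold difference lay within the interval, while for Cd34, Procr, Fgd5 and Ctnnal1 the interval of this fit stayed within 1.5-fold. Over divisions the interval reached 0.74 for Ctnnal1 and -0.60 for Fgd5, and in run 5 alone it reached -0.71 for Procr, each beyond 1.5-fold.

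**Figure D5:**
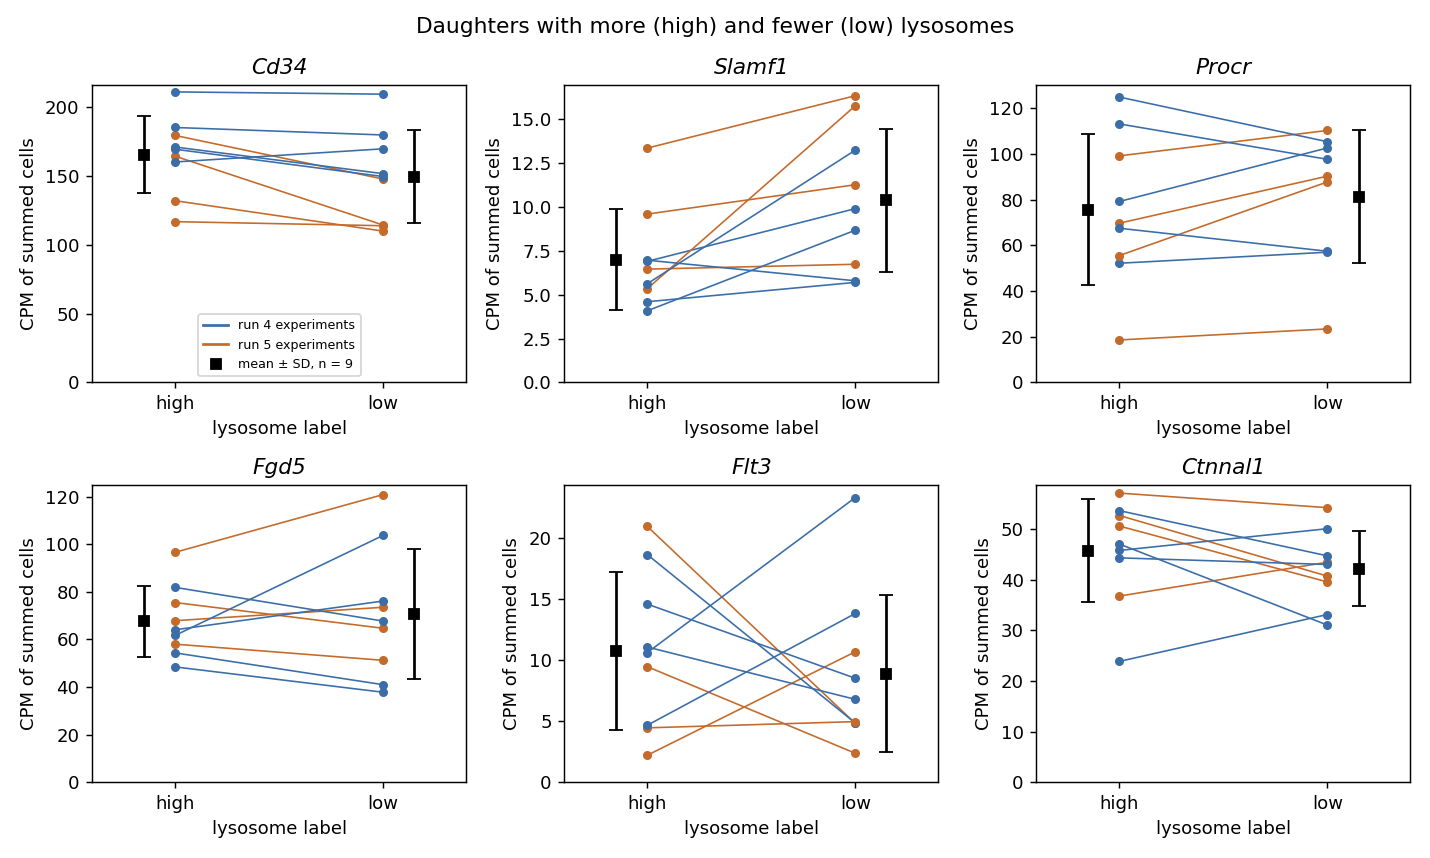
CPM of summed cells (vertical axis, from 0) in high daughters and low daughters of each experiment, joined by lines (run 4 in blue, run 5 in orange), with mean ± SD over 9 experiments as squares. On these sums Cd34 is higher in high daughters in 8 of 9 experiments and Slamf1 lower in 8 of 9, and the groups overlap for all 6 members.

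Cells without a sequenced sister were set beside the paired ones. Procr had a count in 92.6% of the 68 lone cells and in 84.2% of the paired cells, and Fgd5 in 94.1% and 85.5%. Slamf1 had a count in 35.3% of lone cells and 27.6% of paired cells. Flt3 was less frequent among lone cells, with 23.5% against 31.8%. Lone cells were unevenly spread, with 49 cells and 17 complete divisions in experiment 68 but 77 cells and 38 in experiment 76. The shares were pooled over experiments, and the part of experiment in them was not tested. Which cells lost their sister and why is not given in the sources used here, so these shares are a description.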

How the data were processed

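Single daughters of cultured mouse HSCs were profiled by Smart-seq2. The authors deposited raw counts per gene and cell, with no normalization, and the submitters' processing notes name featureCounts, Subread 1.5.0 and SAMtools. No aligner or build is named (not given in the sources used here); the identifiers equal those of GENCODE mouse M21 on GRCm38, whose symbols and positions were used (all 55450 matched). The deposited metadata give other values, the authors' labels of experiment, run, plate, well, colony and lysosome inheritance. Another 171 count columns match no listed sample and were left out. Spike-ins, 92 in number, were left out of totals.

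Sisters share movie, experiment, position and colony, with 1 high and 1 low daughter, which gave 203 divisions (67 in run 5, 136 in run 4) among 474 cells; 154 pairs of unrelated cells in adjacent wells were set beside them. Sums per experiment and label were tested with edgeR 4.0.16 in R 4.3.3 (TMM, filterByExpr, quasi-likelihood test, experiment as block because both labels come from the same divisions), with DESeq2 1.42.0 and limma 3.58.1 as alternatives. Sharing used log2(CPM + 1) with pseudocount 1, genes with a count in at least 20% of cells, and an F test over divisions; detection in 1 sister alone was tested with at least 10 such divisions by an exact sign test. The threshold was an adjusted p of 0.05. The calculations were tested on simulated data. Other steps ran in Python 3.11.15 (scipy 1.17.1, numpy 2.4.6, pandas 2.3.3; figures with matplotlib 3.10.9).

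Depth was 76735 to 2444858 counts on genes a cell. Without molecular identifiers, reads do not stand for separate molecules. Named genes are the members, for each member in at least 20% of cells the 3 genes with the highest and the 1 with the lowest r over division means, and up to 4 genes a list by intraclass correlation; detection of some further marker genes is given to describe the cells or a list. The members and lists were chosen with earlier results of these data known. Alternatives covered scaling, filters, block, tool, pseudocount, thinning, cell cycle, depth, runs and leaving out experiments. The result of 1 further gene list is not reported here.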

Additional observations from a re-analysis of the deposited data

Results flagged for a closer look

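For each member the 9 experiment values of mean CPM, of the difference between high and low daughters in mean log2(CPM + 1) and of the intraclass correlation were searched for an experiment that stood apart by Dixon's 95% criterion. Of 21 such sets 5 had 1, and chance alone marks about 1 set in 20. Experiment 68 stood apart for Cd34, with a difference of 0.86 against -0.08 to 0.30 in the others. A division of that experiment had 0 CPM of Cd34 in the low daughter and 165.2 CPM in the high daughter. That experiment had 17 divisions, and the part of this pair in its value was not tested. Experiment 72 stood apart for Fgd5, with a mean of 117.2 CPM against 49.9 to 82.02 CPM. Cd48 was marked for a mean of 2.98 CPM in experiment 72 (0.04 to 1.399 in the others), a difference of -0.87 there (-0.31 to 0.20) and an intraclass correlation of 0.535 in experiment 73 (-0.05 to 0.00), all of which rest on a few cells with a count.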

How the results depend on the processing

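Experiment serves as the replicate block, since every experiment holds both daughters of each division, and the fit with no replicate block also called 0 genes between high and low daughters. That comparison gave 4 genes with DESeq2 and 0 under each other alternative, leaving out any experiment included (0 to 0). The comparison of this difference between runs gave 2 genes with DESeq2, and that between runs 46 with DESeq2 and 0 to 1 without single experiments (1 without experiment 68). Sharing between sisters called 3095 genes, 1393 with cell cycle scores regressed out, 1201 in run 5 alone (with fewer divisions) and 2653 to 3167 without single experiments; the cause of the fall with cell cycle scores was not tested. Signs turned for Procr between high and low daughters over divisions (0.0224) and in run 4 alone (0.0462), for Fgd5 in run 4 alone (0.0102) and without single experiments (-0.0550 to 0.0869), for Procr between runs without experiment 60 (-0.29 to 0.18 over all left out) and for Cd48 between runs without experiment 72 (-0.15 to 1.43); none of these values had passed, and the cause was not tested. The r of Procr and Fgd5 over cells, 0.46, was 0.59 over division means and 0.22 over differences between sisters; the sister differences and the leaving out of experiments from r over division means (0.557 to 0.620, and -0.276 to -0.213 for Slamf1 and Flt3) were chosen after seeing the data. With every cell thinned to 76735 counts, 21.3% of cells had a count of Flt3, 19.1% of Slamf1 and 2.43% of Cd48.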
